A study of Mus musculus with 7 samples.

Results

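Gfi1, Egr1, Egr2, Egr3 and Nab2 encode transcription factors and a cofactor of the choice between the neutrophil and the macrophage branch of myeloid cells, and their chromatin was examined in mouse common monocyte progenitors (cMoPs), cells committed to becoming monocytes. All intervals in 5 peak lists of these cells that overlapped a gene or lay within 50 kb of either gene end (mm10) were taken, which gave 150 of 105978 intervals. The intervals of the 4 H3K4me2 lists were merged where they touched or overlapped, and 44 of the 39395 resulting autosomal regions belonged to the 5 genes. Egr1 had 8 regions, Egr2 8, Egr3 6, Gfi1 7 and Nab2 15. The nearest end of a protein-coding gene belonged to 1 of the 5 genes for 22 of the 44 regions. The others lay nearer to neighbouring genes such as Stat6, Ado and Bin3.

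The libraries came from bone marrow cMoPs and were made by CUTAC, in which an antibody against a histone mark directs a transposase that cuts accessible DNA nearby. H3K4me2, a mark of promoters and enhancers, was profiled in 2 DE libraries and 2 WT libraries, all of batch 2. H3K4me3, which marks promoters in use, was profiled in 1 WT library, which belongs to batch 1. DE and WT are variants of an enhancer at −165 kb of Zeb2, whose product represses genes through E-boxes. The labels do not say what DE alters, nor whether replicates came from separate animals, so p-values measure the spread between these libraries only. Of the 7 samples of the series, the H3K4me3 library of cells labelled MDP and the IgG library were not analysed here. The list used as DE replicate 1 carries a header line that names DE replicate 2. The series record was used to assign it.

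GFI1 is a zinc-finger repressor that favours neutrophil over monocyte differentiation and acts through the demethylase KDM1A and its partner RCOR1. EGR1 and EGR2 are zinc-finger activators of macrophage genes that, with the corepressor NAB2, also hold back neutrophil genes, and EGR3 is their paralogue. Egr genes are immediate-early genes, induced within minutes of a signal through serum response factor (SRF), which binds CArG boxes in their promoters together with ternary complex factors such as ELK3 and ELK4.

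The 250 bases before 5 transcription starts are shown, because H3K4me2 was called over each in at least 3 libraries (RefSeq, GRCm38.p6, 5′ to 3′ on the strand of the gene). Of the 5 genes, 3 had entries in the promoter table, with 8 starts, of which 7 were covered in this way. The windows of the 2 not printed, at Egr2, overlap the last Egr2 sequence shown. Capitals mark an E-box (CACCTG) before the first Gfi1 start and a CArG box before each of the Egr2 starts, the only matches in these windows to the motifs searched.
Gfi1, minus strand, chr5:107725806-107726055: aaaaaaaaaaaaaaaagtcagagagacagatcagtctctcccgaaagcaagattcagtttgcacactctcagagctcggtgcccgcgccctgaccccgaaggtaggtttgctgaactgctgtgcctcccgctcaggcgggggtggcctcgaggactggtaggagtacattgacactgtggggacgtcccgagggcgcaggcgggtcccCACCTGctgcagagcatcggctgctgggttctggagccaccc
Gfi1, minus strand, internal start, chr5:107724344-107724593: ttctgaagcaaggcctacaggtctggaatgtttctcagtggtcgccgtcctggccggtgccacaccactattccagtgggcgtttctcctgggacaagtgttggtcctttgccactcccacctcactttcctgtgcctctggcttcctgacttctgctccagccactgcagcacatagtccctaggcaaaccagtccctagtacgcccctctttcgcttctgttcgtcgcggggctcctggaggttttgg
Egr2, plus strand, chr10:67537316-67537565: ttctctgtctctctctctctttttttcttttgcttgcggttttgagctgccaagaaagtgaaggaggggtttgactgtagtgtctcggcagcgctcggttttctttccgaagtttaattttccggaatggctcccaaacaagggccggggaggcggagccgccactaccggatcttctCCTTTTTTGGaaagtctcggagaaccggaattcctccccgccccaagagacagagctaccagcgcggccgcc
Egr2, plus strand, chr10:67537619-67537868: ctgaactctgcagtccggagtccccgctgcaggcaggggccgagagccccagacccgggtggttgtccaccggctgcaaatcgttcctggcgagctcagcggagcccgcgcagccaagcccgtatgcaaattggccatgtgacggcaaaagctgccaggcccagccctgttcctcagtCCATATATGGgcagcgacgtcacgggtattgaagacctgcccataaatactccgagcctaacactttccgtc
Nab2, minus strand, chr10:127666704-127666953: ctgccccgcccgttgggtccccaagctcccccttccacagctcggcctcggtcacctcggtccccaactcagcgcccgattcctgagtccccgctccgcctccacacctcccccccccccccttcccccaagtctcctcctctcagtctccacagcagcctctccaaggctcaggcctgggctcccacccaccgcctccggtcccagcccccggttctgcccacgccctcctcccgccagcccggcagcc
The motifs were the EGR sites GCGTGGGCG and GCGGGGGCG, the GFI1 core AAATCA, the E-boxes CACCTG and CAGCTG, and the CArG box, each on both strands. No 2 matches overlapped. Of 32817 promoters in the table, 1.47% held a CArG box and 17.2% CACCTG in the same 250 bases. The EGR sites occurred in 0.536% and 2.57%, AAATCA in 12.4% and CAGCTG in 13.0%.

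The lists differ in depth and in the length of their intervals, which bears on every comparison of DE with WT. The DE lists held 21968 and 17079 intervals with a median length of 249 and 246 bp, against 32354 and 28152 intervals of 152 and 212 bp in WT and 6425 of 167 bp for H3K4me3. The inferred depth, relative to a background library, was 1.199 and 1.47 in DE, 0.476 and 1.04 in WT and 3.81 for H3K4me3. Of 8 monocyte progenitor markers, 7 and 7 had an H3K4me2 call within 1 kb of a gene end in DE, against 8 and 8 in WT. The neutrophil markers gave 1 and 2 of 6 in DE against 1 and 0 in WT, and the T and NK cell markers 0 of 4 in each of the 4 libraries. B cell markers gave 1 and 0 of 4 in DE against 0 and 0 in WT, erythroid markers 1 and 1 of 3 against 0 and 1, and mature macrophage markers 0 and 1 of 4 against 1 and 1. The part of these differences in the results was not tested.

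**Figure D1:**
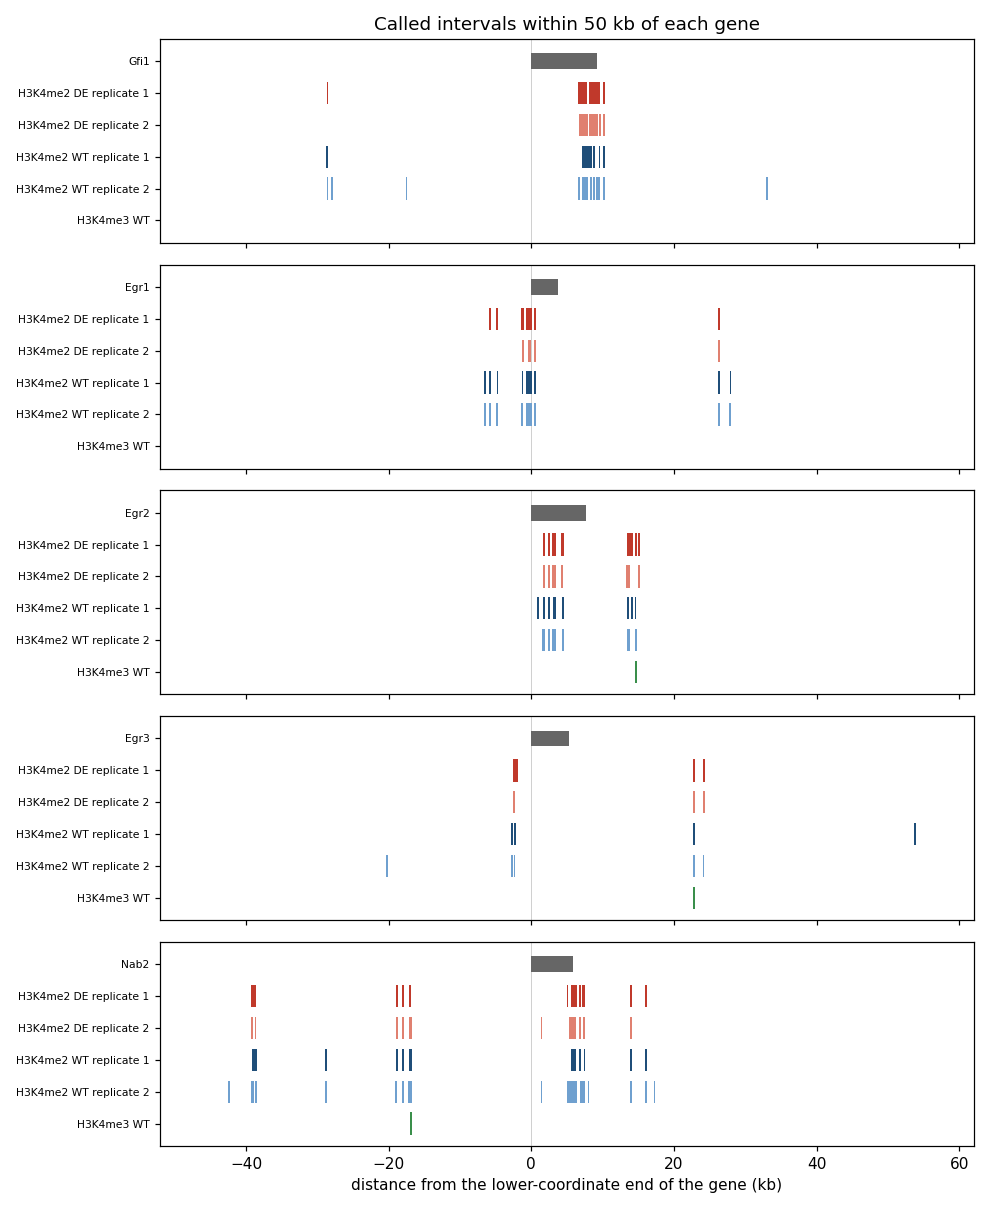
Called intervals of each H3K4me2 library and of the H3K4me3 library within 50 kb of the 5 genes, with the distance from the lower-coordinate end of each gene in kb on the x axis; the grey bar is the gene, and intervals under 0.25 kb are drawn 0.25 kb wide. H3K4me2 intervals overlap Gfi1, Egr1, Egr2 and the higher-coordinate end of Nab2 in all 4 libraries, Egr3 itself carries none, and the 3 H3K4me3 intervals lie away from the 5 genes.

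Of the 44 regions, 12 overlapped 1 of the 5 genes, namely 2 at Gfi1, 2 at Egr1, 5 at Egr2, 3 at Nab2 and 0 at Egr3. Calls in all 4 H3K4me2 lists were made at 22 of the 44, 6 in 3, 7 in 2 and 9 in 1, where 30.2% of all regions were called in all 4. The shared regions were 3 of 7 at Gfi1, 4 of 8 at Egr1, 5 of 8 at Egr2, 2 of 6 at Egr3 and 8 of 15 at Nab2. Gfi1, Egr1 and Nab2 had a call within 1 kb of a gene end in all 4 lists (39.1% of 20665 protein-coding genes did), Egr2 had one in WT replicate 1, and Egr3 in none. In these bulk libraries, fewer cells with a mark and less of it per cell cannot be told apart. At Egr2, 5 regions lay inside the gene, and of these only the one at 67537364 to 67537889 spans starts that RefSeq places within its bounds.

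Gfi1, on the minus strand at 107716655 to 107725805 of chromosome 5, carried its most H3K4me2 fragments in the merged region that spans its start, in each of the 4 libraries. The region at 107724658 to 107726252 held 41 and 41 fragments at its highest summit in DE replicates 1 and 2, against 19 and 39 in WT replicates 1 and 2. Those summits lay inside the gene, at 107725483 and 107725520 in DE against 107725476 and 107725487 in WT. No interval of WT replicate 1 covered the start itself. Scaled to depth, the fragments were 34.2 and 27.9 in DE against 39.9 and 37.6 in WT. Both DE libraries thus stood above both WT libraries in raw fragments and below them after scaling. The calls covered 1491 and 1370 bp of the region in DE, as 1 and 2 intervals, against 685 and 1036 bp in WT, as 4 and 3 intervals.

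The 250 bases with the E-box before the first start of Gfi1 were covered over 250 and 185 bases in DE, against 0 and 250 in WT. A region just inside the gene, at 107723228 to 107724574, was called in all 4 lists with 21 and 24 fragments in DE against 15 and 25 in WT, and spans the internal start at 107724343. It covered 1263 and 1273 bp in DE against 635 and 1006 bp in WT, with no overlap between the genotypes. In fold over background this internal region was the higher of the 2, at 11.8 and 10.7 in DE against 10.8 and 17.1 in WT. The region that spans the start had 11.7 and 10.2 in DE against 10.2 and 14.99 in WT. A smaller region lay 930 bp before the first start, at 107726735 to 107727019, with 9 and 12 fragments in DE against 6 and 14 in WT.

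The other 4 Gfi1 regions were thinly called. Those at 107688575, 107699016 and 107749580 were called in WT replicate 2 alone with 6, 10 and 11 fragments. The region at 107687923 to 107688137, nearer to Rpap2, had 16 fragments in DE replicate 1 and none called in DE replicate 2, against 8 and 14 in WT. No H3K4me3 interval lay within 50 kb of Gfi1.

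Egr1, at 34861207 to 34864956 of chromosome 18, had more fragments at its highest summit than the other 4 genes in 3 of the 4 libraries, among the regions nearest to each gene, and over a high local background. The region 1039 bp outside its lower end, at 34859793 to 34860168, held 52 and 52 fragments in DE, against 27 and 64 in WT. The region over the lower end itself, at 34860448 to 34861296, held 48 and 52 in DE against 23 and 62 in WT. After scaling to depth the DE libraries were lower at both, with 43.4 and 35.3 in DE against 56.8 and 61.7 in WT at the outer region, and 40.0 and 35.3 against 48.3 and 59.7 at the gene end.

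The background under the outer Egr1 summit was 8 and 5 fragments in DE, against 7.02 and 8 in WT. Backgrounds are given throughout in fragments of the inferred background library. The caller's own value in WT replicate 1 was 3.34 here, as the background was scaled down to the lower depth of that library. The fold over background there was therefore moderate, at 4.93 and 6.05 in DE against 6.46 and 6.96 in WT. In comparison, the Egr2 summit of highest fold stood on a background of 0.873 and 1 fragments in DE against 0.596 and 1 in WT. Its fold was 13.4 and 14.4 in DE against 24.9 and 21.7 in WT. The order of Egr1 and Egr2 thus depended on the scale: Egr1 was higher in fragments in both DE libraries and in WT replicate 2, and Egr2 was higher in fold in each of the 4.

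Another Egr1 region, at 34861558 to 34861816 in the gene and 351 bp from its lower end, had 10 and 19 fragments in DE against 17 and 20 in WT. Scaled to depth it gave 8.34 and 12.9 in DE, both below the 36.0 and 19.3 of WT. Further upstream, the regions at 34855251 and 34856259 were called in DE replicate 1 and both WT libraries, and that at 34854564 to 34854711 in both WT libraries alone, with 6 and 8 fragments. The largest of these was the second, with 29 fragments in DE replicate 1 against 8 and 25 in WT, and no call in DE replicate 2. The first had 14 fragments in DE replicate 1 against 5 and 14 in WT. No H3K4me3 interval lay within 50 kb of Egr1.

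Beyond the other end of Egr1, 22369 bp away and 15119 bp from the nearest gene end, that of Etf1, the region at 34887325 to 34887666 was called in all 4 lists. Its highest summit held 19 and 23 fragments in DE, against 21 and 30 in WT, or 15.8 and 15.6 in DE against 44.2 and 28.9 in WT after scaling. Its fold was 2.81 and 4.16 in DE, against 16.4 and 9.97 in WT. The fold is the wider gap, though folds are not comparable in size between libraries. The background under these summits differed, at 5 and 3 fragments in DE against 0.728 and 2 in WT. The caller placed these summits at 34887539 and 34887526 in DE, against 34887477 and 34887502 in WT, and so read the background at slightly different places. A further region, at 34888905 to 34889097, was called in both WT libraries with 7 and 8 fragments and in neither DE library.

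Egr2, on the plus strand at 67534469 to 67542188 of chromosome 10, carried its highest H3K4me2 fold over the promoter of the start at 67537869. The region at 67537364 to 67537889 ranked by −log10 p within the top 7.0% and 3.4% in DE, against the top 0.8% and 4.1% in WT. Its highest summit held 29 and 41 fragments in DE, against 31 and 44 in WT. Scaled to depth, these were 24.2 and 27.9 in DE, both below the 65.2 and 42.4 of WT. The 250 bases before the start at 67537869 were covered over 250 and 250 bases in DE against 248 and 167 in WT.

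The summit with the highest fold in that region fell on the CArG box of the promoter in all 4 libraries. The box lies 72 to 63 bases before the start, at 67537797 to 67537806. The summits were at 67537796 and 67537799 in DE, against 67537805 and 67537807 in WT, that is 1 and 0 bases outside the box in DE and 0 and 1 in WT. The other CArG box, at 67537494 to 67537503, had its nearest summit 41 and 20 bases away in DE against 1 and 42 in WT. Of the 38 CArG boxes in promoters that were covered in all 4 lists, the Egr2 box was the 1 with a summit within 10 bp in every library, a count made after the positions were seen. It describes where the calls peak and is no evidence of binding.

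The remaining calls inside Egr2 flanked this region. The region at 67536006 to 67536376 had 42 and 33 fragments in DE against 13 and 43 in WT, on a background of 4 and 4 fragments in DE against 2 and 2 in WT. The region at 67536773 had 13 and 13 in DE against 17 and 14 in WT, and that at 67538573, on the far side, 10 and 10 against 5 and 8. The genotypes overlapped in raw fragments at the first of these 3 and not at the other pair, where DE was lower at one and higher at the other. Scaled to depth, the region at 67538573 had 8.34 and 6.79 in DE against 10.5 and 7.71 in WT, so the genotypes overlapped there. The region nearest to the lower end of the gene, at 67535247 to 67535432, was called in WT replicate 1 alone with 5 fragments, and lies before the start at 67535499.

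A second cluster lay 5533 bp beyond Egr2, at Ado, a thiol dioxygenase gene. The region at 67547721 to 67548668, 287 bp from an end of Ado, held 12 and 13 fragments in DE against 3 and 10 in WT and covered 841 and 633 bp in DE against 314 and 523 bp in WT. DE was higher on both measures and in fold, which was 6.65 and 6.93 in DE against 3.52 and 3.54 in WT. Folds carry the scaling of each list and are not comparable in size between libraries. Depth-scaled fragments overlapped, at 10.01 and 8.83 in DE against 6.31 and 9.63 in WT. The background at the summits was 0.655 and 0.418 fragments in DE, against 0.285 and 2 in WT. The region at 67549409 to 67549727 was the 1 region of the 44 called in both DE libraries and neither WT library, with 12 and 17 fragments, where 1.1% of all regions had that pattern. Between them lay the region at 67548963 to 67549174, 8 bp from the end of Ado. It was called in DE replicate 1 with 19 fragments and not in DE replicate 2, against 21 and 20 in WT. It also carried H3K4me3 with 27 fragments, or 7.09 after scaling to the greater depth of the H3K4me3 library.

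Egr3, at 70077317 to 70082613 of chromosome 14, had no call in the gene or within 1 kb of its ends in any of the 5 lists. Its nearest region called in all 4 lists, at 70074763 to 70075455, lay 1862 bp outside the lower end and held 15 and 17 fragments in DE, against 8 and 25 in WT. Scaled to depth these were 12.5 and 11.5 in DE, both below the 16.8 and 24.1 of WT. A neighbouring region at 70074516 to 70074707 was called in both WT libraries, with 8 and 12 fragments, and in neither DE library. The H3K4me2 call with the most fragments in the window was 1 of WT replicate 2 alone, with 38 at 70056993 near Pebp4, over a background of 8 fragments, so that its fold was 4.18. At Bin3, the region at 70099965 held 13 and 18 fragments in DE against 10 and 23 in WT. Its fold was 5.92 and 6.61 in DE against 9.07 and 11.6 in WT. Beside it, 70101348 held 24 and 23 in DE, against no call and 28 in WT. The last region, at 70131024, was called in WT replicate 1 alone with 3 fragments.

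Nab2, on the minus strand at 127660918 to 127666703 of chromosome 10, was called over its start in all 4 lists, in the region at 127666251 to 127667269. It held 12 and 19 fragments in DE, against 16 and 17 in WT, and covered 802 and 991 bp in DE against 660 and 1004 bp in WT. The genotypes overlapped on both measures, and after scaling DE was lower, with 10.01 and 12.9 in DE against 33.6 and 16.4 in WT. The 250 bases before the start, which held none of the motifs, were covered in full in all 4 libraries.

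Outside the start, the region at 127667578 to 127667921, 875 bp away, had 19 and 11 fragments in DE against 9 and 14 in WT, and the next, at 127668049, 12 and 14 against 5 and 15. Inside the gene, 127665858 to 127666093 was called in DE replicate 1 with 7 fragments and in WT replicate 2 with 10, and 127662209 in DE replicate 2 with 13 and in WT replicate 2 with 12. Nab2 overlaps the neighbouring gene Stat6 at its lower end. The region at 127662209 lay inside Nab2, 1291 bp from that end, but its nearest gene end was one of Stat6, 1222 bp away. Which gene it serves was not tested.

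The larger fragment counts in the Nab2 window belonged to its neighbours. The region over the far end of Stat6, a cytokine-activated transcription factor, at 127642796 to 127643126, held 40 and 57 fragments in DE against 22 and 60 in WT. The region at 127674775, nearest to Nemp1, held 50 and 43 in DE against 14 and 51 in WT. Both stood on a raised background, of 6 and 9 fragments in DE against 7.02 and 7 in WT at Stat6, and of 6 and 5 against 2 and 3 at Nemp1. The region at 127632033 to 127632222, 10733 bp from Stat6, was called in both WT libraries with 12 and 21 fragments and in neither DE library. Over an end of Nemp1, 127676792 to 127677092 held 26 fragments in DE replicate 1 and had no call in DE replicate 2, against 30 and 46 in WT. WT replicate 2 alone was called at 127618366, 127668825 and 127678058, with 6, 13 and 13 fragments.

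**Figure D2:**
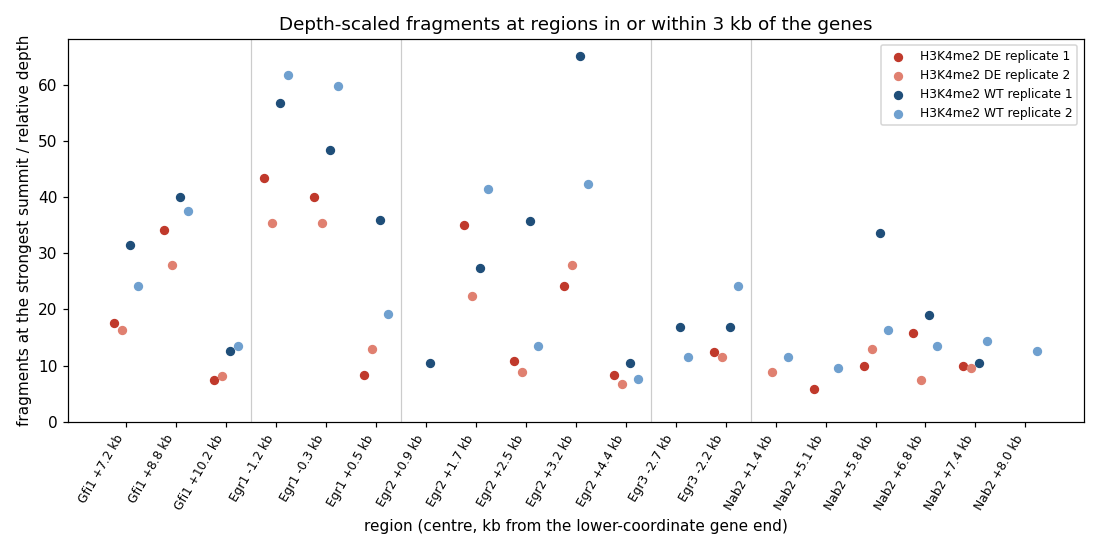
Fragments at the strongest summit divided by relative depth (y axis) for each region in or within 3 kb of a gene (x axis, region centre in kb from the lower-coordinate gene end), 1 point per H3K4me2 library, with no point where a library has no call. DE points lie mostly below WT points, as at the Egr1 regions, where 43.4 and 35.3 in DE stand against 56.8 and 61.7 in WT.

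The pattern of depth-scaled fragments near the 5 genes was that of the whole series. Of the 22 shared regions, 16 had fewer depth-scaled fragments in both DE than in both WT libraries, a share close to the 72.4% of the 11864 shared regions with a value. None had more in both DE libraries (0.877% of all). The median ratio of DE to WT was 0.679 over the 22 regions and 0.649 over all. The 14 shared regions nearest to 1 of the 5 genes had a median ratio of 0.636 and were all lower on average in DE. Depth comes from one inferred background library, so these ratios are relative to it.

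No comparison of the totals went past its test. Of the 44 regions, 30 and 25 were called in DE, against 33 and 41 in WT, where 52.3% and 40.3% of all regions were called in DE against 71.4% and 65.4% in WT. The mean difference was −9.5 regions, with an exact two-sided permutation p of 0.33, the smallest that 6 assignments allow. The calls covered 12110 and 10137 bp in DE, against 8427 and 12546 bp in WT, a mean difference of 637 bp (exact permutation p = 1). WT replicate 1 was the lowest in bases and not in regions, and without it the difference in bases was −1422.5 bp. Without DE replicate 1 it was −349.5 bp.

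Regions called in both WT libraries and neither DE library numbered 4, where 8.77% of all regions had that pattern. They were the regions at 34854564 and 34888905 of Egr1, 70074516 of Egr3 and 127632033 of Nab2. Their summits held 6 to 21 fragments. The count was 7 where −log10 q had to reach 5, and it was 9 without DE replicate 1 and 11 without WT replicate 1. Regions called in 1 library alone were 7 in WT replicate 2 (12.1% of all regions), 2 in WT replicate 1 (20.5%) and 0 in a single DE library (9.93%).

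**Figure D3:**
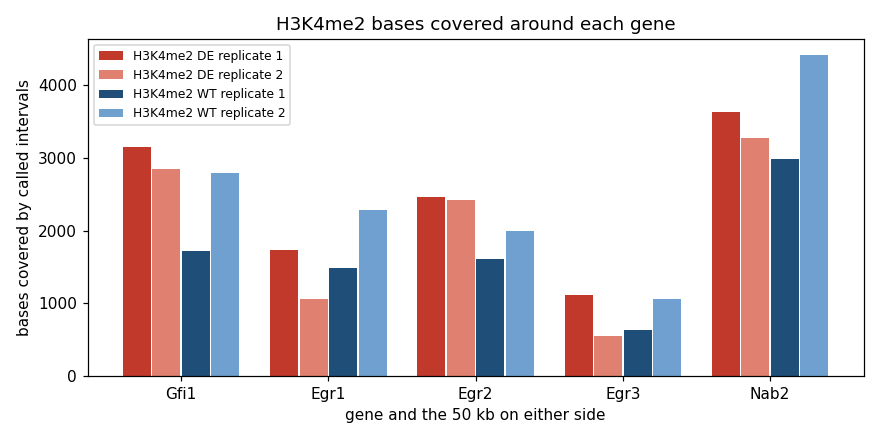
H3K4me2 bases covered by called intervals (y axis, from 0) within each gene and the 50 kb on either side (x axis), 1 bar per library, DE left of WT. Both DE bars stand above both WT bars at Gfi1 (narrowly, 2844 against 2795 bp) and Egr2, and the genotypes overlap at Egr1, Egr3 and Nab2. Windows of other genes were not counted.

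Covered bases differed in direction between the genes. Around Gfi1 they were 3151 and 2844 bp in DE against 1721 and 2795 bp in WT. Around Egr2 they were 2468 and 2420 bp in DE against 1609 and 1990 bp in WT. DE was higher at both genes without overlap, at Gfi1 only by 2844 against 2795 bp. The Egr2 window takes in the region at 67547721 near Ado, with 841 and 633 bp in DE against 314 and 523 bp in WT. How many windows of other genes show such a gap was not counted. Around Egr1 they were 1739 and 1054 bp in DE against 1484 and 2285 bp in WT. Egr3 had 1114 and 549 bp in DE against 625 and 1057 bp in WT, and Nab2 3638 and 3270 bp against 2988 and 4419 bp, so the genotypes overlapped at these 3. Of the 22 shared regions, 7 were covered over more bases in both DE than in both WT libraries (21.9% of all shared regions) and 5 over fewer (15.3%). The median log2 ratio of bases, DE over WT, was 0.04 for the 22 regions and 0.08 for all. Intervals in DE were longer across the whole lists, as given with the depth, and no gene was tested for itself.

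Relative strength within each list was compared through ranks, for which the inferred depth was not used. The fold that was ranked still carries the caller's own scaling, so its ranks are not free of depth. The 11891 regions called in all 4 lists were ranked by fold in each library, the ranks were turned into normal scores, and the difference between DE and WT was fitted with limma across all of them. None of the 22 regions near the 5 genes passed a Benjamini-Hochberg adjusted p of 0.05 in either direction, and 0% of all shared regions did (0 of 11891), with a smallest adjusted p of 0.346. At an unadjusted p under 0.05 there were 2 of the 22 regions and 1218 of all, or 10.2%. Of the 22 scores, 9 were positive and 13 negative, with a median of −0.24 against −0.01 over all shared regions.

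At the gene starts the rank scores were small against their intervals. The region over the Gfi1 start had a score of 0.48 in DE relative to WT (95% interval −0.52 to 1.49, limma adjusted p = 0.733), and the one 930 bp before it −0.24 (adjusted p = 0.887). The regions over and inside the lower end of Egr1 had −0.24 (adjusted p = 0.878) and −0.67 (adjusted p = 0.663). The Egr2 region with the CArG box had −0.24 (95% interval −1.29 to 0.81, adjusted p = 0.879). The Nab2 start had −0.28 (adjusted p = 0.852) and the region 875 bp outside it 0.35 (adjusted p = 0.835). All of these intervals include 0, so a difference of that size in either direction was not detectable with 2 libraries per genotype.

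The 2 regions with an unadjusted p under 0.05 lay outside the genes. The region 22369 bp beyond Egr1 had a score of −2.21 in DE relative to WT (95% interval −3.51 to −0.91, limma adjusted p = 0.346). It stood at the top 98.4% and 77.5% of the shared regions in DE, against 8.5% and 44.2% in WT. The region near Ado beyond Egr2 had a score of 2.36 (95% interval 1.36 to 3.37, limma adjusted p = 0.346), and stood at the top 48.8% and 33.0% in DE against 98.003% and 98.6% in WT. Before adjustment the limma p-values were 0.00312 and 0.000279. Without WT replicate 2 both passed, as did 316 of 12221 regions in all, with adjusted p of 0.0027 and 0.0233 and scores of −2.84 and 2.26. Ranked by fragments in place of fold, the scores were −0.62 and 0.92 (limma p of 0.103 and 0.0288 before adjustment). With regions merged across gaps of up to 500 bp, the score at Ado turned to −0.33.

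**Figure D4:**
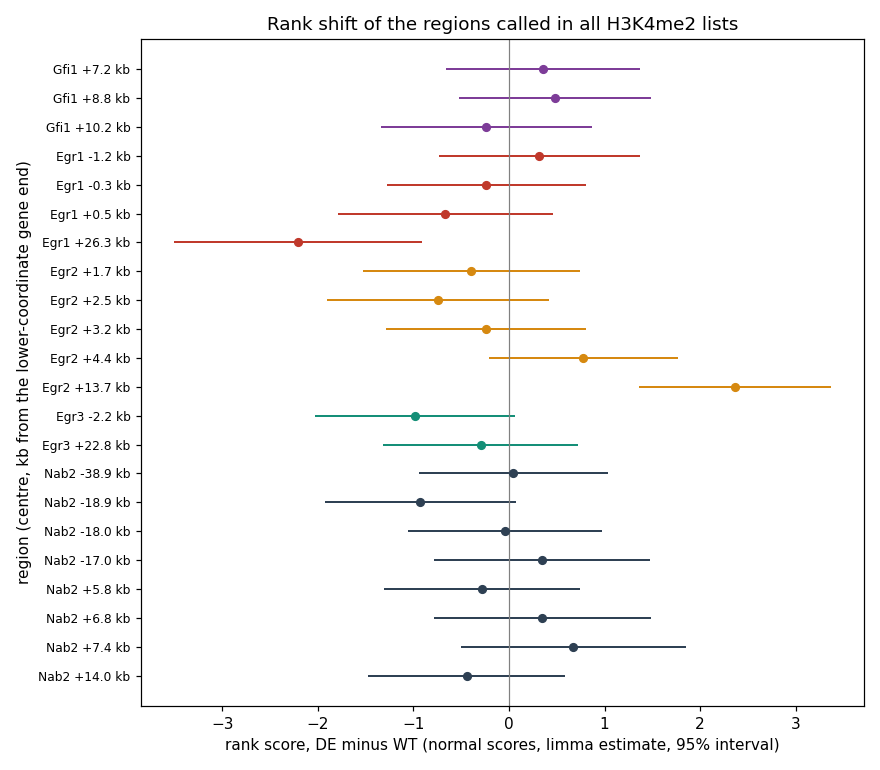
Rank score of DE minus WT (x axis, normal scores, limma estimate with its 95% interval) for the 22 regions called in all 4 H3K4me2 lists, listed by gene and by region centre in kb from the lower-coordinate gene end (y axis). All intervals but those of the regions at +26.3 kb of Egr1 and +13.7 kb of Egr2 include 0.

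H3K4me3 was not called at any of the 5 genes. The 3 intervals in the windows lay at Ado (27 fragments), Bin3 (42 fragments) and Stat6 (36 fragments), each within a region that also had H3K4me2. Scaled to the relative depth of that library, 3.81, the fragments were 7.09 at Ado, 11.03 at Bin3 and 9.45 at Stat6. Of the 31 regions called in both WT libraries, 3 carried H3K4me3, where 28.2% of all such regions did. Of the 18 of these nearest to 1 of the 5 genes, 0 did. Within 1 kb of a gene end, H3K4me3 was called at 0 of 5 genes and at 21.6% of all protein-coding genes, or at 51% of those with H3K4me2 in all 4 lists. The H3K4me3 list is short, from 1 library and of another batch, so the lack of a call is no evidence that the mark is lacking.

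The partners of GFI1 and of the EGR factors were mostly called at their gene ends, and few differed between genotypes. Of 8 partners and relatives of GFI1, 6 had an H3K4me2 call in all 4 lists (39.1% of protein-coding genes), among them Rcor1, the CoREST scaffold, and the deacetylases Hdac1 and Hdac2. Kdm1a, the demethylase that GFI1 recruits, was called in both WT libraries and neither DE library, a pattern of 3.03% of protein-coding genes. Gfi1b, the paralogue active in erythroid cells and megakaryocytes, was called in no list. H3K4me3 was called at 4 of the 8, namely Rcor1, Hdac1, Ehmt2 and Zbtb17 (21.6% of protein-coding genes, and 51% of those with H3K4me2 in all 4 lists).

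Of 9 relatives and upstream factors of the EGR genes, 7 were called in all 4 lists (39.1% of protein-coding genes) and the other 2 in none. Among them were Nab1, the paralogue of Nab2, Srf, and the SRF cofactors Elk3 and Elk4. Those in none were Egr4 and Wt1, zinc-finger relatives. As background, 0.223% of protein-coding genes had a gene-end call in both DE and neither WT library, and 0 of these 17 listed genes did. Of the cell type markers, S100a8 (neutrophil) and Klf1 (erythroid) had that pattern. Cx3cr1 (monocyte progenitor) had the reverse one, with calls in both WT libraries and neither DE library.

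Genes whose strongest gene-end region ranked most like that of a member over the 4 libraries were found by Euclidean distance between normal scores, among 7971 genes. The nearest to Gfi1 were Vps36 (distance 0.192), Mark4 (0.205) and Slc46a3 (0.214). Those to Egr1, by its region at 34861558, were Manba (0.249), Fbxo32 (0.252) and Tnfaip8l1 (0.256). Those to Nab2 were Cep20 (0.174), Dusp1 (0.175) and Naa16 (0.177). Egr2 and Egr3 had no gene-end region in all 4 lists and could not be compared.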

How the data were processed

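CUTAC peak lists of 5 libraries were used, each called per sample. Peaks are on mm10 and from MACS2 2.2.9.1, with Bowtie2, Trimmomatic, Picard and SAMtools also named, per the submitters' processing notes. Settings, duplicate handling and any control were not given in the sources used here. Per interval, the deposited lists hold a score (the −log10 q times 10, without decimals), the fold of the pileup over local background, a linear ratio as the authors' caller gave it, and the deposited −log10 p and −log10 q. The deposited offset gives the summit. The lowest −log10 q was 1.00 to 1.02. Such values belong to the authors. They were ranked within a list, and fold and p were solved for fragments. Folds of DE and WT printed side by side carry the scaling of each list, so their sizes are not comparable between libraries.

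Genes came from RefSeq (GRCm38.p6, coordinates from 1). A region was called in a library at an overlap of at least 1 bp. Fragments at summits were recovered by solving fold and p together. Of all summits, 99.8% to 99.98% were solved. Where several solutions existed, the one nearest to a whole count was kept. Fragments were then whole (within 0.01 fragments) for 99.3% to 100% of solved summits, a share raised by that choice. Without the choice it was 54.9% (H3K4me3) to 83.1% (WT replicate 1). With a wrong weight per fragment it was 1.53% (WT replicate 2) to 13.5% (WT replicate 1). The share of whole counts is therefore no independent check of the recovery. Relative depth is 1 over the weight of a fragment, and for WT replicate 1 comes from the background per kb. The shortest interval, taken as the fragment length, was 109 bp in both DE lists, 74 and 91 bp in WT and 96 bp for H3K4me3. Background values are in fragments of the background library, so those of WT replicate 1 are the caller's value divided by its relative depth of 0.476. These steps and the background library are inferred from the values. Counting error alone limits summits of few fragments.

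Totals were compared by exact permutation and ranks with limma 3.58.1 (R 4.3.3). In simulated data with 200 of 11891 regions shifted, limma recovered 0.5% of shifts of 1 in the score and 38% of shifts of 2. The lack of a call therefore says little about shifts of these sizes. The members and gene lists were chosen with earlier results of these data known. Regions named with values are those within 1 kb of a gene end, those not called in all 4 lists, those with H3K4me3 and the strongest others. The regions 22369 bp beyond Egr1 and near Ado, the fragments, the background values and the distances to the CArG box were added after values were seen. Alternatives were other thresholds, list lengths, windows, overlaps, merging and rankings, the replicate block and leaving out each library.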

Additional observations from a re-analysis of the deposited data

How the results depend on the processing

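The difference in regions called kept its sign under every alternative run, and none of the exact tests could go below p = 0.33. Leaving out 1 library gave −13.5 to −5.5 regions, and −1422.5 to 2696.5 bp for the bases covered, which were −827.5 bp where −log10 q had to reach 5. The cause was not tested. Regions with calls in both WT libraries and none in DE numbered 7 at that limit, 2 within 10 kb and 2 where the nearest gene was 1 of the 5, and 4 to 11 without 1 library. Those called in both DE and neither WT library numbered 3 with lists of equal length, 0 at 50% cover, 0 with merging within 500 bp, 0 by nearest gene, and 1 to 2 without 1 library. Regions with H3K4me3 numbered 1 within 10 kb, 8 within 100 kb and 0 by nearest gene, as these settings take other regions. Regions with a rank shift numbered 0 to 2 without 1 library, with 1 WT sample assumed to vary like the others. For single regions, the score at the Egr1 end turned to 0.0777 by −log10 p and 0.23 by fragments, with −0.55 to 0.0310 without 1 library. Merging gave 0.37 for the region before Gfi1, −0.33 near Ado and 0.28 at the Nab2 start, and fragments −0.0219 beside Nab2. Without 1 library, these spanned −0.72 to 0.18 before Gfi1, −0.56 to 0.0197 at the Nab2 start and −0.29 to 0.92 beside it, and −0.55 to 0.0798 at the Egr2 promoter.

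The replicate numbers did not pair the libraries (r = 0.01 over 11891 regions, as a description). With the replicate block the differences were −9.5 regions (exact p = 0.5) and 637 bp (p = 1), and 0 member regions shifted in rank, against 2 of all shared regions. Depth limits summits of few fragments, most of all in WT replicate 1.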
